A study of Mus musculus with 2 samples.

Results

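The genes described here are the matrix metalloproteinases (Mmp), the ADAMTS metalloproteinases (Adamts) and the tissue inhibitors of metalloproteinases (Timp) that had a row in the deposited expression table, chosen by symbol alone. There were 46 of them among 22740 genes, made up of 23 Mmp, 19 Adamts and 4 Timp genes. Expression had been measured by RNA sequencing in whole uteri of 2 pregnant mice of strain C57BL/6, both labelled WT, at pregnancy day 4, with 1 library per animal. The libraries form 1 group with no treated, mutant or non-pregnant control, so the data give levels and the spread between 2 animals, called uterus 1 and uterus 2. Whole uterus mixes epithelium, stroma, muscle, vessels and immune cells, and in such bulk RNA fewer cells of a type and less RNA per cell cannot be told apart.

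Mmp enzymes are zinc-dependent proteases that cleave collagens, laminins, fibronectin and other matrix proteins, and most are secreted or membrane-bound as inactive precursors whose propeptide must be removed. ADAMTS enzymes are secreted proteases with thrombospondin repeats that cut large proteoglycans such as versican, process procollagens or act on other matrix glycoproteins. Timp proteins bind the active site of Mmp enzymes and block it, and Timp3 also blocks ADAMTS enzymes. In the uterus the balance of proteases and inhibitors is known for its part in remodelling the stroma around the implanting embryo.

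Levels are the authors' RPKM, reads scaled to transcript length in kilobases and to library size, which allow genes to be set side by side. Whole reads were recovered from them and summed to 3765839 in uterus 1 and 4184478 in uterus 2. Members with a mean of at least 1 RPKM rested on a median of 161 reads in uterus 1 and 184 in uterus 2. Markers of stroma (5 of 5), smooth muscle (4 of 4), epithelium (4 of 4) and endothelium (3 of 3) were all at 1 RPKM or more in both uteri. Of 4 ovary and oviduct markers 3 were detected, Ovgp1 highest at 5.78 and 9.31 RPKM, and the part of such tissue in the members' levels was not tested. Of 4 decidua markers Bmp2 (2.39 and 1.03 RPKM) and Wnt4 (1.501 and 1.844 RPKM) were detected, and the prolactin genes Prl8a2 and Prl3c1 were listed at 0 in both uteri. The 4 blastocyst markers lay at 0.962 RPKM or less. A gene was called detected at 1 RPKM or more in both uteri.

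Of the 46 genes, 30 were detected, against 58.4% of all genes and 61.6% of genes with a protein-coding RefSeq identifier. The shares differed between the families: 16 of 19 Adamts, 3 of 4 Timp and 11 of 23 Mmp genes were detected. At 10 RPKM or more in both uteri there were 17 members, against 30.4% of all genes, of which 8 were Adamts, 6 Mmp and 3 Timp genes. The median level over the whole family was 33.7 ± 0.722 RPKM (SD, n = 2) for Timp, 7.80 ± 0.361 for Adamts and 0.650 ± 0.154 for Mmp genes, beside 3.26 ± 0.0405 over all genes. Without the 4 Mmp genes listed at 0 in both uteri the Mmp median was 2.67 RPKM. Another 12 members held at least 1 read but were not detected, and 4 Mmp genes were listed at 0 in both uteri, as were 23.4% of all genes.

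**Figure D1:**
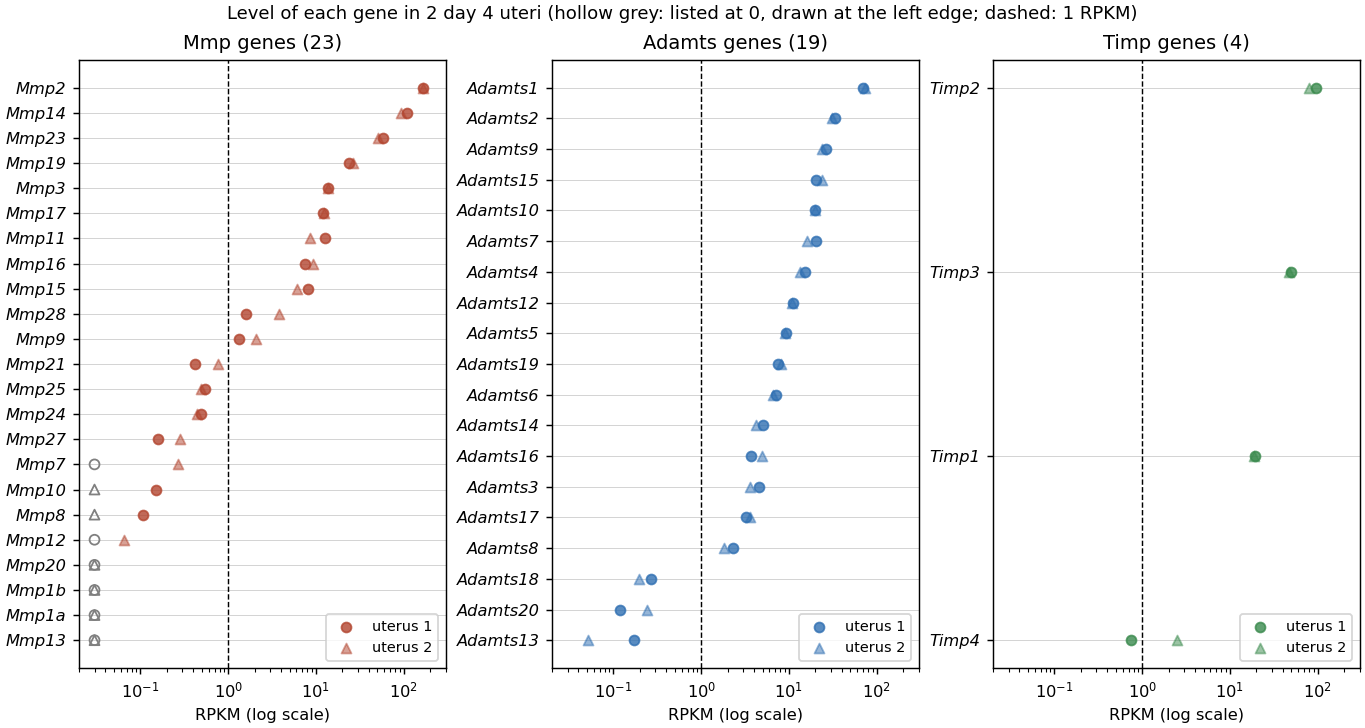
RPKM of each gene (log scale) in uterus 1 (circles) and uterus 2 (triangles), by family, with a dashed line at 1 RPKM and genes listed at 0 drawn hollow at the left edge. Mmp2 lay highest near 164 RPKM in both uteri, and the lowest Mmp genes were listed at 0, whereas 16 of 19 Adamts genes lay right of the line in both.

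Levels within the Mmp family differed by genome position, which the choice of genes did not use. Of the 23 Mmp genes, 10 lie side by side on chromosome 9 between 7272514 and 7699416 (mouse build mm9), a stretch of 426.9 kb in which the annotated table holds no other gene. Of these 10, only Mmp3 was detected, whereas 10 of the 13 Mmp genes elsewhere in the genome were. The summed level of the cluster was 14.1 ± 0.110 RPKM (SD, n = 2), nearly all of it Mmp3, against 389 ± 14.5 RPKM for the Mmp genes elsewhere.

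To show motifs found before most genes of this cluster, stretches of the 120 bases before the start are printed (RefSeq start sites, build GRCm38.p6). They belong to 4 cluster genes, all of which hold both motifs, and to 3 highly expressed members. Each reads 5′ to 3′ toward the start site. Capitals mark TGANTCA, the core bound by AP-1 factors (Fos and Jun), and TATAAA, the letters of a TATA box, wherever they fall.
Mmp3 (chr9:7445702-7445821, plus strand): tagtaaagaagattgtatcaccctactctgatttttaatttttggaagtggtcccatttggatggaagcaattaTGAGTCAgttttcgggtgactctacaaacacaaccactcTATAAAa
Mmp1a (chr9:7464021-7464140, plus strand): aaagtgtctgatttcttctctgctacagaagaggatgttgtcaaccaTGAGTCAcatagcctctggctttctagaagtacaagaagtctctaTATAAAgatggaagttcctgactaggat
Mmp10 (chr9:7502222-7502341, plus strand): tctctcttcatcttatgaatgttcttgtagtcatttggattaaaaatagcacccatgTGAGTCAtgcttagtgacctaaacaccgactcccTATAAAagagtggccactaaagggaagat
Mmp13 (chr9:7272394-7272513, plus strand): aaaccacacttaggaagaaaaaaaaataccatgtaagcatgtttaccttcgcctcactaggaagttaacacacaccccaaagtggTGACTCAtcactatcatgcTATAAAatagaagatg
Mmp14 (chr14:54431478-54431597, plus strand): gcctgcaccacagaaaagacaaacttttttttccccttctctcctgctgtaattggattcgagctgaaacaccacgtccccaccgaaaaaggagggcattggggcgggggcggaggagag
Timp2 (chr11:118355412-118355531, minus strand): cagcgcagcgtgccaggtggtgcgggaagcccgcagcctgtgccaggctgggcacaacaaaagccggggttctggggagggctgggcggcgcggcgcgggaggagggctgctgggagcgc
Adamts1 (chr16:85803114-85803233, minus strand): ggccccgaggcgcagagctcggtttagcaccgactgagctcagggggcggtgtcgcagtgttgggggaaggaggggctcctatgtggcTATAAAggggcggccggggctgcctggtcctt

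Both motifs were searched on both strands in the 250 bases before each start, a gene was counted if any of its start sites held a match, and no match of one overlapped a match of the other in the sequences shown. The RefSeq table held 35 start sites for 32 of the 46 members. The 14 members without an entry were all detected and outside the cluster: Mmp2, Mmp9, Mmp16, Mmp17, Mmp19, Adamts4, Adamts5, Adamts6, Adamts7, Adamts8, Adamts10, Adamts15, Adamts16 and Adamts19. The counts and the plot of other members leave these genes out. TGANTCA stood before 8 of the 10 cluster genes and before none of the 22 other members with a sequence, against 2113 of all 27025 genes in that table. Counted by start site, it stood before 66.7% of the 12 in the cluster and 6.75% of all 32851. TATAAA stood before 7 of the 10 cluster genes and before 2 of the other 22 members, Adamts1 and Mmp21, against 3872 of all 27025 genes. Counted by start site, it stood before 58.3% of the 12 in the cluster and 12.4% of all. Of the cluster genes, Mmp8 and Mmp27 held neither motif and Mmp12 held TGANTCA only. Mmp12 and Mmp7 each had another start site with neither motif. The first base of TGANTCA lay between 35 and 95 bases before the start in the 8 cluster genes that held it, in Mmp3 at 46 and in Mmp13 at 35. That of TATAAA lay 7 bases before the start in Mmp3, 16 in Mmp13, 28 in Mmp1a and 29 in Mmp10. It lay at 49 in Mmp1b, 58 in Mmp20, 26 and 123 in Mmp7, 32 in Adamts1 and 70 in Mmp21. Whether these matches act as TATA boxes was not tested. Median GC content of the 250 bases was 40.2% in the cluster (range 37.2% to 53.2%) and 63.6% in the other members (53.6% to 79.2%), beside 52.4% over all start sites. A match is a description of letters, not of binding, and Mmp3 shares both motifs with 6 cluster genes that were not detected.

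**Figure D2:**
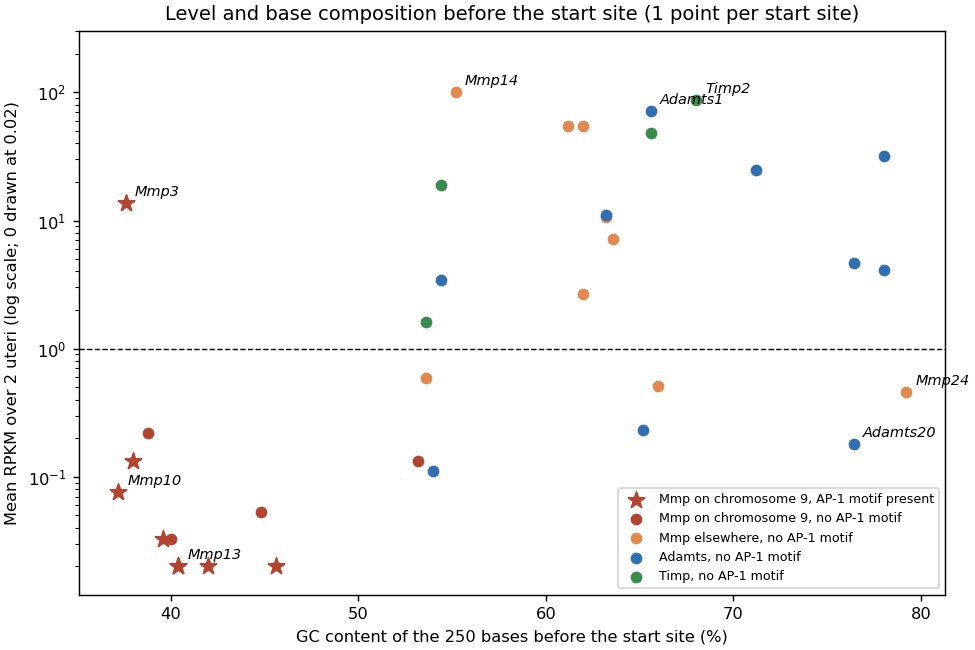
Mean RPKM over 2 uteri (log scale, 0 drawn at 0.02) against GC content of the 250 bases before each RefSeq start site, 1 point per start site of 32 members; stars mark start sites with TGANTCA. All 8 stars belong to the chromosome 9 cluster and lie under 50% GC, and among them Mmp3 alone lies above the dashed line at 1 RPKM.

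Mmp3 (stromelysin 1, which cuts proteoglycans, laminin and fibronectin and activates other Mmp precursors) lay at 13.6 RPKM in both uteri. It rested on 94 and 104 reads by annotated length, or 47 and 52 at the smallest that the RPKM values allow. Its neighbours held next to no reads. Mmp10 (stromelysin 2) had 1 read in uterus 1 (0.152 RPKM) and was listed at 0 in uterus 2, where 3 reads would be 0.411 RPKM. Mmp8 (neutrophil collagenase) likewise had 1 read in uterus 1 (0.106 RPKM) and 0 in uterus 2. Mmp12 (macrophage elastase) and Mmp7 (matrilysin) were listed at 0 in uterus 1 and had 1 read each in uterus 2, which is 0.0651 RPKM for Mmp12 and 0.268 RPKM for Mmp7. Mmp27 had 1 and 2 reads (0.157 and 0.284 RPKM). These genes cannot be ordered at this depth.

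Mmp1a, Mmp1b, Mmp13 (collagenase 3) and Mmp20 (enamelysin, known from tooth enamel) were listed at 0 in both uteri. With their longest annotated transcripts, 3 reads in uterus 1 would be 0.387 RPKM for Mmp1a, 0.540 for Mmp1b, 0.293 for Mmp13 and 0.239 for Mmp20. A listed 0 is not read as absence, since Rpl26, a ribosomal protein gene that every cell uses, was also listed at 0 in both uteri. Mmp1a and Mmp1b are paralogues, and how reads that match both were counted is not given in the sources used here. Mmp1a, Mmp1b, Mmp8 and Mmp13 were grouped here as secreted collagenases, a class known to open the fibrillar collagen triple helix. Whether each of them does so was not tested. Together they held 1 read in uterus 1 and 0 in uterus 2. Mmp14, a membrane-type enzyme, is also known to cleave fibrillar collagen.

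**Figure D3:**
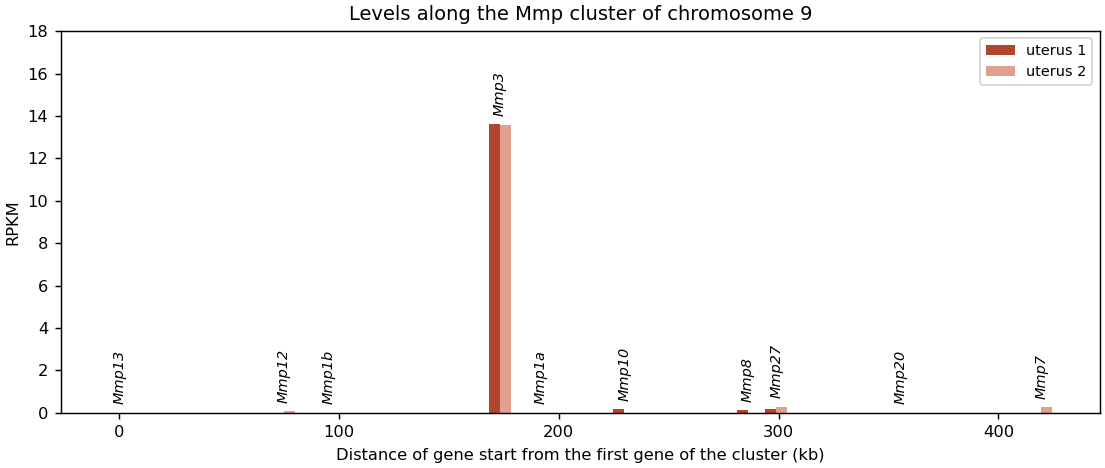
RPKM in uterus 1 (dark bars) and uterus 2 (light bars) against the distance of each gene's start from that of Mmp13, the first gene of the chromosome 9 cluster (kb). Mmp3, 173 kb from the first start, stands at 13.6 RPKM, and the 9 genes around it lie under 0.3 RPKM in both uteri.

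The highest of all 46 genes was Mmp2 (gelatinase A, which cleaves basement membrane collagen IV and denatured collagen), on chromosome 8 from 95351227 to 95377319. Uterus 1 held 163.9 RPKM of it (1911 reads) and uterus 2 164.0 RPKM (2122 reads), and its mean was above that of 98.9% of all genes. Mmp9 (gelatinase B), the other gelatinase, lay at 1.33 and 2.10 RPKM on 16 and 28 reads. The level of Mmp2 was thus 123 times that of Mmp9 in uterus 1 and 78.2 times in uterus 2. That ratio moves between the uteri with the few reads of Mmp9, whose 95% exact Poisson intervals, which cover counting error only, ran from 0.760 to 2.16 RPKM in uterus 1 and from 1.39 to 3.03 in uterus 2.

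Among the 6 membrane-type enzymes, which are anchored at the cell surface, 4 were detected and Mmp14 dominated. Mmp14 (MT1-MMP, the surface activator of the Mmp2 precursor), on chromosome 14 from 55050441 to 55060095, lay at 108.7 RPKM in uterus 1 and 93.1 in uterus 2. That is 13.4 and 15.1 times the level of Mmp15 (MT2-MMP), which lay at 8.11 and 6.15 RPKM. Mmp17 lay at 12.04 and 12.39 RPKM and Mmp16 at 7.52 and 9.14 RPKM. Mmp24 (0.485 and 0.437 RPKM, 8 reads each by annotated length and 1 each at the smallest) and Mmp25, a leukocyte enzyme (0.541 and 0.488 RPKM, 7 reads each), were not detected. The row of Mmp24 overlaps BC029722 on the opposite strand by 635 bases, a gene at 5.44 and 5.41 RPKM. Mmp2 and Mmp14 together held 65.9% of the summed Mmp level in uterus 1 and 65.4% in uterus 2.

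Mmp23 and Mmp19 were also above 10 RPKM in both uteri. Mmp23, a transmembrane enzyme released on cleavage and known from reproductive tissues, lay at 58.0 and 51.6 RPKM and had rank 5 among all members. Mmp19 lay at 24.1 and 26.3 RPKM. Its row overlaps Tmem198b on the opposite strand by 789 bases, and use of strand is not given in the sources used here. Mmp11 (stromelysin 3) lay at 12.7 RPKM in uterus 1 and 8.57 in uterus 2. Mmp28 (epilysin) lay at 1.58 and 3.76 RPKM, and Mmp21 at 0.421 and 0.759 RPKM on 3 and 6 reads.

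Neutrophils and macrophages are known sources of Mmp8, Mmp9, Mmp12 and Mmp25, and their markers lay far apart. Of 7 neutrophil markers listed, 6 had a row, 3 of these (Camp, Ngp and Elane) were listed at 0 in both uteri and 1 was detected, S100a8 at 1.33 and 1.20 RPKM on 2 reads each. The highest single value was 1.93 RPKM for S100a9 in uterus 2, on 4 reads. All 4 macrophage markers with a row were detected, Csf1r at 19.4 and 22.9 RPKM. The part of either cell type in these Mmp levels was not tested.

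Among the Adamts genes, the 7 that cleave large proteoglycans held most of the level, 144 ± 1.88 RPKM in sum (SD, n = 2) of 257 ± 3.43 for the family. Adamts1, a versican-cleaving enzyme known as a progesterone-regulated gene of the ovary and uterus, was highest. It lies on chromosome 16 from 85794073 to 85803360 and stood at 69.6 and 73.8 RPKM on 1303 and 1534 reads, which is 26.8% and 29.0% of the family's sum. Adamts9 lay at 26.1 and 23.7 RPKM, Adamts15 at 20.5 and 23.7, and Adamts4 (aggrecanase 1) at 15.1 and 13.5. Adamts5 (aggrecanase 2) lay at 9.37 and 9.05 RPKM. Adamts8 lay at 2.30 and 1.81 RPKM on 32 and 28 reads by annotated length (8 and 7 at the smallest). Adamts20 was not detected, at 0.119 and 0.241 RPKM on 4 and 9 reads.

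Of these proteoglycan-cleaving genes, 4 lie in adjacent pairs, and the members of each pair differed in level. Adamts1 and Adamts5 lie 55.0 kb apart on chromosome 16, with Adamts1 7.43 times higher in uterus 1 and 8.16 times in uterus 2. Adamts15 and Adamts8 lie 20.1 kb apart on chromosome 9, far from the Mmp cluster, with Adamts15 8.94 and 13.1 times higher.

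All 3 procollagen N-propeptidases, which trim fibrillar procollagens before fibrils assemble, were detected. Adamts2 led at 33.5 and 30.8 RPKM on 960 and 980 reads by annotated length (480 and 490 at the smallest). Adamts14 lay at 5.08 and 4.26 RPKM and Adamts3 at 4.56 and 3.59 RPKM. The 2 genes known to cleave cartilage oligomeric matrix protein were also present, Adamts7 at 20.1 and 16.2 RPKM and Adamts12 at 11.2 and 10.8 RPKM. Adamts13, the protease of von Willebrand factor, had 3 reads and 1 read (0.171 and 0.0513 RPKM).

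The remaining Adamts genes have less settled substrates. Adamts10, a fibrillin-associated member, lay at 19.7 RPKM in both uteri, on a row whose identifier is that of a non-coding transcript. Adamts19 lay at 7.55 and 8.06 RPKM, Adamts6 at 7.19 and 6.63, Adamts16 at 3.72 and 4.91 and Adamts17 at 3.24 and 3.59. Adamts18 was not detected, at 0.269 and 0.194 RPKM on 5 and 4 reads.

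The inhibitors were few and abundant. Timp2, which blocks Mmp enzymes and at the cell surface also links the Mmp2 precursor to Mmp14, lies on chromosome 11 from 118162375 to 118216725 and stood at 94.9 RPKM in uterus 1 and 79.8 in uterus 2. Timp3, the inhibitor that binds to matrix and also blocks ADAMTS enzymes, stood at 49.4 and 47.7 RPKM. Timp1 lay at 19.0 and 18.7 RPKM on 65 and 71 reads, 2.59 and 2.54 times below Timp3. Timp4 lay at 0.737 RPKM in uterus 1 and 2.49 in uterus 2, on 4 and 15 reads, so it was above 1 RPKM in uterus 2 only. Timp2 held 57.8% of the summed Timp level in uterus 1 and 53.7% in uterus 2.

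Timp1, Timp3 and Timp4 each lie wholly inside a synapsin gene on the opposite strand, Syn1, Syn3 and Syn2 in that order. Syn1 lay at 0.649 and 1.17 RPKM and Syn3 at 0.925 and 1.19, far below the inhibitors inside them. Syn2 lay at 8.82 and 9.74 RPKM, above Timp4. Strand use is not given, and whether the exons of these genes overlap was not tested. Timp2 overlaps the row BC100451 on its own strand, which lay at 6.46 and 5.46 RPKM.

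The Timp genes held 19.1% ± 0.660 (SD, n = 2) of the summed level of all 46 genes. In sum the proteases stood at 4.10 times the inhibitors in uterus 1 and 4.35 times in uterus 2, and the Mmp genes alone at 2.52 and 2.64 times. For the complex in which Mmp14 activates Mmp2 with Timp2, the ratio of Mmp14 to Timp2 was 1.14 and 1.17, and that of Mmp2 to Timp2 was 1.73 and 2.05. These are ratios of RNA, and most of the proteins need activation. The sums do not pair each protease with an inhibitor that blocks it.

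**Figure D4:**
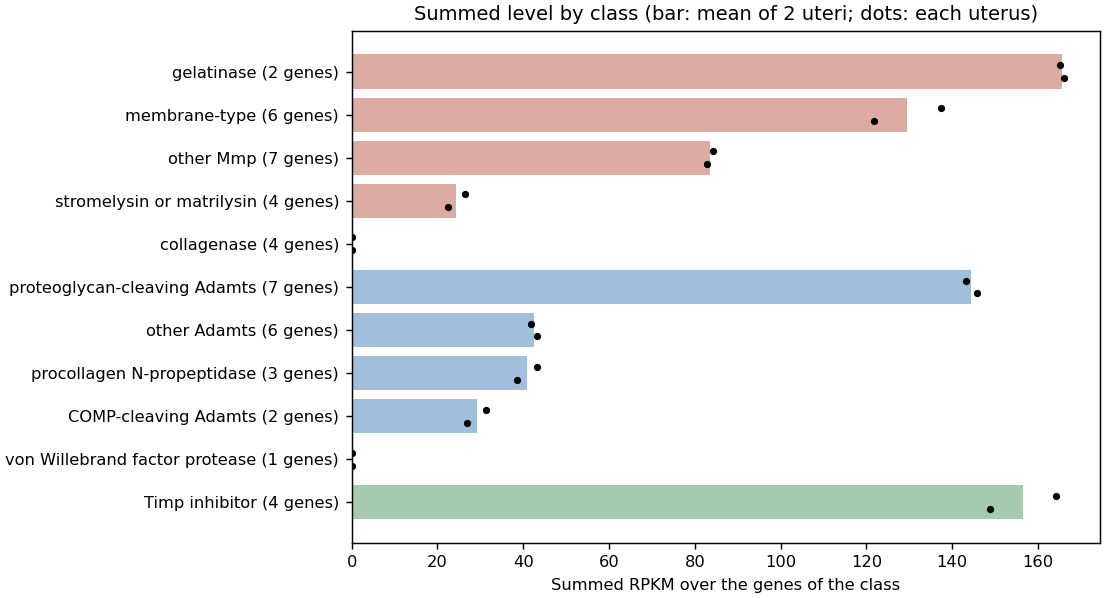
Summed RPKM over the genes of each class (bars: mean of 2 uteri; dots: each uterus), with Mmp classes in red, Adamts classes in blue and Timp in green. The gelatinases (166 ± 0.581 RPKM, nearly all Mmp2), the Timp inhibitors and the proteoglycan-cleaving Adamts genes stand highest, and the collagenases lie at 0.0532 ± 0.0752 RPKM.

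In the order of levels, Mmp2 was followed by Mmp14, Timp2, Adamts1, Mmp23, Timp3 and Adamts2. The ranges of Mmp14 and Timp2 over the 2 uteri overlapped, although Mmp14 was the higher in each uterus, while Mmp2 and each of Adamts1, Mmp23 and Timp3 lay apart from their neighbours in both uteri. Of the 30 pairs of neighbours among the 31 members with a mean of at least 1 RPKM, 16 had overlapping ranges.

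Differences between the uteri were small for most members. They are given as log2 of uterus 2 over uterus 1 after adding 0.1 RPKM to each value, for genes averaging 1 RPKM or more, a scale that understates the change of low genes. The 31 members had a median of -0.05, beside 0.00067 over all 13647 genes, and 18 of the 31 lay below 0, against 49.9% of all genes. Mmp2, Adamts10, Mmp3 and Timp1 were within 0.03 of 0. Of the 31, 2 were at least 2-fold apart (6.45%), against 2.60% of all genes. Both were low and higher in uterus 2, Timp4 with a log2 ratio of 1.63 and Mmp28 with 1.20. With a pseudocount of 1 RPKM Mmp28 was at 0.88 and 1 of 31 members was 2-fold apart, against 1.12% of all 13647 genes. Without the filter on low values 5 of 46 members were, against 8.12% of all 22740 genes. At a mean of 10 RPKM or more 0 of 18 members were, against 0.657% of 7311 genes. With the pseudocount of 0.1 RPKM and the filter at 1 RPKM, 1.18% of all genes were at least 2-fold higher in uterus 2. In uterus 1, 1.42% were at least 2-fold higher.

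A two-sided exact binomial test of recovered reads, with Benjamini-Hochberg adjustment over 15106 genes, compared these 2 libraries and not conditions. It called 2 of 36 tested members, against 4.66% of all genes, and 8 of the 36 had an unadjusted p under 0.05, as had 2325 of all 15106 genes. Both called members were higher in uterus 1, as were 2.55% of all genes, and no member was called higher in uterus 2, against 2.11% of all genes. Timp2 was higher in uterus 1, with 1318 and 1230 reads, a log2 ratio of -0.25 and an adjusted p of 0.00075 in the exact test. With the smallest reads that the RPKM values allow, 659 and 615, its adjusted p was 0.0509 in the same exact test, so this call rests on the choice of reads. Mmp14 was also higher in uterus 1, with 1082 and 1029 reads, a log2 ratio of -0.22 and an adjusted p of 0.0127. Timp4 (adjusted p 0.214) and Mmp28 (0.0822) did not pass the same exact test at their 4 to 37 reads. Adamts7 did not pass either, at an adjusted p of 0.0540 in the exact test, which was 0.0484 when genes under 20 reads were left out and 0.289 with the smallest reads.

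**Figure D5:**
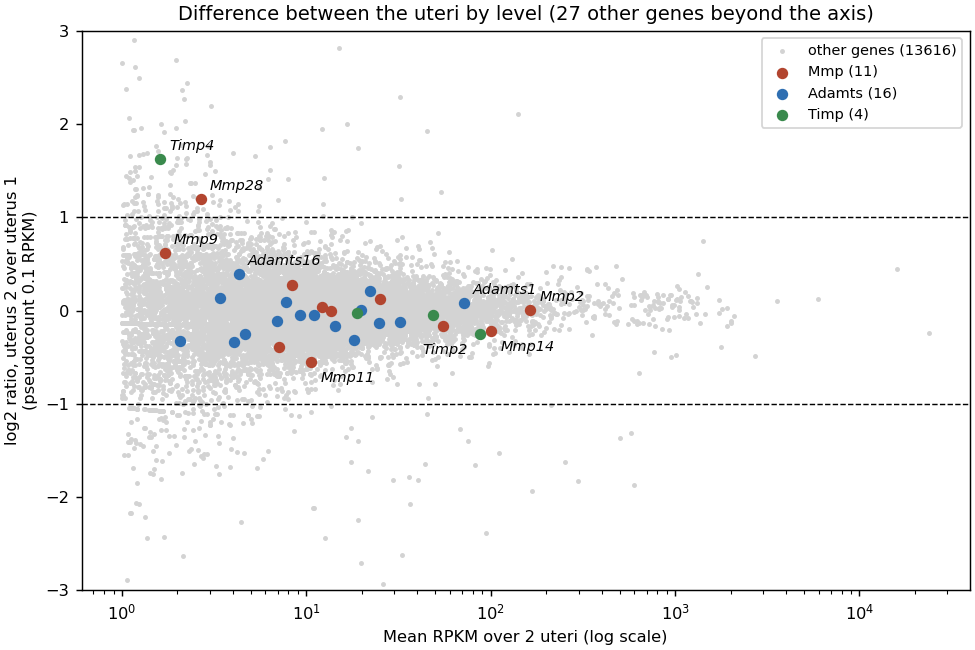
Log2 ratio of uterus 2 over uterus 1 (pseudocount 0.1 RPKM) against mean RPKM (log scale) for the 31 members (coloured by family) and all other genes that average 1 RPKM or more (grey); dashed lines mark 2-fold, and a few grey genes lie beyond the axis. Of the members only Timp4 and Mmp28 lie beyond a line, at the low end where the grey cloud is widest, and Mmp2 lies at 0.

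Genes for the proteins on which these enzymes act were in part at far higher RNA levels. Of 18 substrate genes listed, 14 were detected and their list median was 108 ± 5.20 RPKM (SD, n = 2). Col3a1 lay at 1908 and 1939 RPKM, and Vcan (versican) at 42.2 and 40.2 RPKM. Acan, Bcan and Ncan, the cartilage and brain proteoglycans of the same family, had 7 reads or fewer in each uterus, and Comp lay at 0.645 and 0.581 RPKM. By the exact test 9 of 16 tested substrate genes differed between the libraries, 8 higher in uterus 1 (Col1a1, Col1a2, Col4a1, Col4a2, Fn1, Eln, Vwf and Nid1) and 1 higher in uterus 2 (Dcn), against 2.55% and 2.11% of all genes. Apart from Eln and Vwf they rest on many reads, at which the test can call small ratios. The smallest log2 ratio among them was -0.16 for Nid1, on 3887 and 3851 reads. Col1a2, Col4a1 and Fn1 lay between -0.21 and -0.20. Col1a1 at -0.48, Dcn at 0.34 and Col4a2 at -0.33 were further from 0 than Timp2 (-0.25) and Mmp14 (-0.22). The part of read depth in these calls was not tested. Col1a1 lay at 1184 and 851 RPKM. Timp2 and Mmp14 were higher in uterus 1 like those 8 genes and unlike Dcn, and of the 5 stroma markers 1 was called higher in uterus 1 (Col1a1) and 2 higher in uterus 2 (Dcn and Vim). Of the 4 smooth muscle markers Acta2 was called higher in uterus 1 and Myh11 higher in uterus 2. Of the 4 epithelium markers 1 was called, Krt18 at 70.4 and 94.3 RPKM, and their summed level was 193 RPKM in uterus 1 and 231 in uterus 2. The part of tissue makeup in these differences was not tested.

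Of 17 genes that activate, anchor or restrain these proteases, 16 were detected. Reck, a membrane-bound Mmp inhibitor, lay at 11.4 and 9.86 RPKM, and Furin, which cleaves the propeptides of membrane-type enzymes and ADAMTS proteins, at 19.2 and 16.2 RPKM. Bsg (basigin, an inducer of Mmp genes) lay at 118 and 116 RPKM, and Lrp1, the receptor that takes up many of these proteases, at 96.2 and 84.5. Plg, the plasminogen gene, was listed at 0 in both uteri, while its activator Plat lay at 63.1 and 57.8 RPKM. The exact test called 3 of 16 tested genes, all higher in uterus 1 (Plau, Lrp1 and Thbs1), against 2.55% of all genes. Lrp1 was called on 5492 and 5354 reads at a log2 ratio of -0.19. Plau, the urokinase gene, lay at 10.4 RPKM in uterus 1 and 4.91 in uterus 2 on 93 and 49 reads.

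Related proteases outside the 3 families were detected for 13 of 16 genes, with a list median of 13.9 ± 0.251 RPKM. Bmp1, the procollagen C-proteinase that acts beside Adamts2, lay at 30.7 and 32.7 RPKM. The exact test called 1 of 13 tested, Adam10, higher in uterus 1, beside 4.66% of all genes called in either direction. Of the 5 Adamts-like genes, which share the repeats but lack the protease domain, 3 were detected, and the exact test called 1 of 5, Adamtsl1, higher in uterus 1 at 12.2 and 9.32 RPKM, beside the same 4.66%.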

How the data were processed

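The members, lists and tests were chosen with earlier results of these data known. Per the labels' protocols and design text, RNA was extracted with TRIzol, poly-A purified and sequenced on a HiSeq2500 after TruSeq library preparation. The deposited values are RPKM computed by the authors, and the submitters' processing notes name TopHat, edgeR and mm9 without version or role. Counting program, annotation release and strand use are not given in the sources used here. The labels name 2 independent mice, so p-values on reads measure the difference between 2 libraries only.

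Both deposited tables hold identical values for all 22740 shared genes. Of 21203 genes matched to GENCODE M1 (build NCBIM37, that is mm9) by symbol and chromosome, 12380 had an annotated start 1 base after the deposited start, so starts were read as counted from 0 and are printed counted from 1.

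Reads were recovered from RPKM. Single-exon genes gave scaling totals of 3834174 and 4256101, and among single-exon genes not at 1 read, 94.7% of 511 values in uterus 1 and 94.2% of 534 in uterus 2 came out whole within 0.001 reads. All 16104 genes above 0 in both libraries gave a ratio of whole numbers within a relative 1e-12. The common factor was the smallest giving a whole transcript length within 0.05 in natural log of an annotated one, otherwise the smallest giving a whole length. This set 39 members by annotation and 3 (Mmp16, Mmp7 and Adamts20) at their smallest. The exact binomial test took genes with at least 6 reads in sum and the sums of recovered reads as totals, at an adjusted p under 0.05. It was tested on simulated data. By rule, named genes were all members and genes of the lists. Tmem198b, BC029722 and BC100451, whose rows overlap a member's, and Rpl26 fall outside that rule and were chosen after their values were seen. Python 3.11.15, SciPy 1.17.1 and pandas 2.3.3 were used. Alternatives were other thresholds, pseudocounts, filters, scalings, read choices and each library alone. Promoter sequences are RefSeq's (GRCm38.p6) and were not converted to mm9. Emr1 stands for Adgre1, and Ly6g was not analysed here.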

Additional observations from a re-analysis of the deposited data

How the results depend on the processing

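Precision is limited by 3765839 and 4184478 recovered reads and 2 animals. Detection counts stayed within 1.5 times under every threshold and with either library alone. With each library alone, detected members ranged from 30 to 31, Mmp from 11 to 11, Adamts from 16 to 16 and Timp from 3 to 4. Family medians ranged from 0.541 to 0.759 RPKM (Mmp), 7.55 to 8.06 (Adamts) and 33.2 to 34.2 (Timp), and the Timp share from 18.7% to 19.6%, steps that are under 1 SD by construction. Leaving out the 4 genes listed at 0 raised the Mmp median to 2.67 RPKM by construction. With a pseudocount of 1 RPKM 1 of 31 members was at least 2-fold apart (153 of all 13647 genes), and Mmp28 had a log2 ratio of 0.88. Without a filter 5 of 46 members were (1846 of all 22740 genes), and the members' median log2 ratio was -0.0139. At a mean of 10 RPKM or more 0 of 18 members were (48 of 7311 genes). The smallest possible reads left 1 called member, Mmp14, by the exact test. Totals implied by the RPKM values, an alternative chosen after seeing the data, and TMM totals each called Mmp14 and Timp2 again. No paired analysis was possible because both libraries belong to the same group.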
